A study of Mus musculus with 64 samples.

Results

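The liver of Angelman syndrome (AS) mice was compared with the liver of wildtype (WT) mice, 10 mice of each genotype, in 20 RNA-seq libraries of the 64 samples of the series. The samples were chosen by tissue and genotype as labelled, and no expression value entered the choice. All mice were F1 hybrid males of 10 to 18 weeks, from WT C57BL/6J fathers and 129sv mothers that carried the Ube3atm1Alb allele on their own paternal chromosome. AS mice (Ube3a m-/p+) inherited from the mother a copy of Ube3a that lacks exon 5, which puts the rest of the reading frame out of phase. WT mice inherited the intact maternal copy. Within each genotype 5 mice received a vehicle pellet of cholesterol and 5 received a pellet that released corticosterone (CORT), and the genotypes were compared with treatment as a covariate. All mice had therefore been exposed to a pellet, so that no liver of an untreated mouse was measured.

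Ube3a encodes an E3 ubiquitin ligase. In most neurons the paternal copy is silenced by an antisense transcript, so that a maternal mutation removes nearly all neuronal protein, whereas in liver and most other tissues both copies are expressed. The liver of an adult mouse also differs strongly between the sexes. Pulsatile growth hormone acts through the transcription factor STAT5B in males and keeps male-biased genes on, among them those for the major urinary proteins (MUPs), while the more continuous secretion of females favours other genes, among them Cux2 and Abcd2. A list of 25 male-biased and a list of 25 female-biased genes, taken from general knowledge of mouse liver but with earlier results of these data known, were followed beside lists of other pathways and cell types.

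Reads on genes numbered 18612550 to 20868924 per library, and a count of 3 corresponded to 0.144 to 0.16 CPM (counts scaled to the normalized library size). Summed hepatocyte markers stood at 103000 to 154000 CPM. The Y-linked Ddx3y stood at 40.2 to 55.7 CPM and Xist at no more than 0.099 CPM in all 20 libraries, as labelled for males. The share of reads that did not align was 5.39 to 8.93% in WT vehicle, 4.52 to 6.68% in AS vehicle, 3.2 to 4.77% in WT CORT and 1.49 to 3.23% in AS CORT libraries. Its median was thus lower in AS than in WT liver with vehicle (5.39 against 6.57%) and with CORT (2.86 against 3.94%), and the genotypes overlapped in both treatments. Treatment and genotype together accounted for 77.1% of the variance of its logarithm. For this reason the pooled count and the pooled counts of male-biased and female-biased genes are also given with this share as a covariate, an alternative chosen after its values were seen. The contrasts within treatment, the other lists and the comparison with hippocampus were not run with it. In addition, 6 libraries (L1, L2, L3, L4, L7 and L8), 3 of each genotype, stood apart from the other 14 on the second principal component, which was led by clock genes such as Dbp and Arntl.

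Across 12273 genes tested, 31 differed between AS and WT liver at an adjusted p under 0.05 (edgeR quasi-likelihood F test, Benjamini-Hochberg adjustment), which is 0.253% of the genes. Of these, 16 were higher in AS mice (0.13% of genes tested) and 15 were lower (0.122%). An unadjusted p under 0.05 was found for 1203 genes. All 31 had the same direction in the vehicle contrast and in the CORT contrast. The pooled fit used the same mice as these contrasts, so that this is a description and no independent support. With the share of unaligned reads as a covariate, 2 genes passed, Ube3a and Tcf24, and the median standard error rose from 0.0875 to 0.113. Without the 6 libraries that stood apart, 56 genes passed.

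Ube3a (chromosome 7, 59228750 to 59311536, plus strand, GRCm38), the gene that carries the mutation, was lower in AS liver. In WT vehicle mice it stood at 51.9, 47.6, 41.8, 54.4 and 46.0 CPM, and in AS vehicle mice at 31.7, 28.5, 38.6, 30.6 and 35.6 CPM. With CORT the WT mice stood at 49.0, 45.2, 53.5, 44.4 and 51.9 CPM, and the AS mice at 34.0, 34.6, 37.5, 32.4 and 35.9 CPM. Every AS mouse lay below every WT mouse. The mean was 48.6 ± 4.26 CPM in WT and 34.0 ± 3.15 CPM in AS mice (SD, n = 10 each), a log2 fold change of -0.52 (SE 0.0595, adjusted p = 0.000154). AS liver thus held 69.9% of the WT level, with a 95% confidence interval of 64.1 to 76.1%. The counts are summed over the gene, so that transcripts of the mutated copy without exon 5 are included and cannot be told apart from those of the intact copy. Ube3a fell also in the vehicle contrast (-0.55, adjusted p = 0.0191) and in the CORT contrast (-0.48, adjusted p = 0.0133), and with the share of unaligned reads as a covariate (-0.52, adjusted p = 0.0171).

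Other genes of the imprinted region around Ube3a did not pass the test. Of 18 listed genes, 7 were tested in liver. Snrpn, which codes for a splicing protein and is expressed from the paternal copy, had a log2 fold change of 0.08 and stood at 2.65 to 5.44 CPM in all mice. Herc2, a neighbouring ubiquitin ligase gene expressed from both copies, had a value of -0.18, Nipa1 of 0.30, Nipa2 of -0.02, Cyfip1 of 0.03 and Tubgcp5 of 0.02. The 11 genes that were not tested reached at most 1.76 CPM in a library, among them the antisense transcript host Snhg14 at no more than 0.736 CPM. On the whole of chromosome 7, 917 genes were tested and 2 passed, Ube3a and Ctsc, beside 0.253% of all genes tested. No member of the lists of HECT ligases (24 tested), of UBE3A partners (20 tested) or of proteasome subunits (39 tested) passed the threshold, and their median log2 fold changes were -0.04, 0.01 and 0.02, beside a median of 0.01 over all genes.

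**Figure D1:**
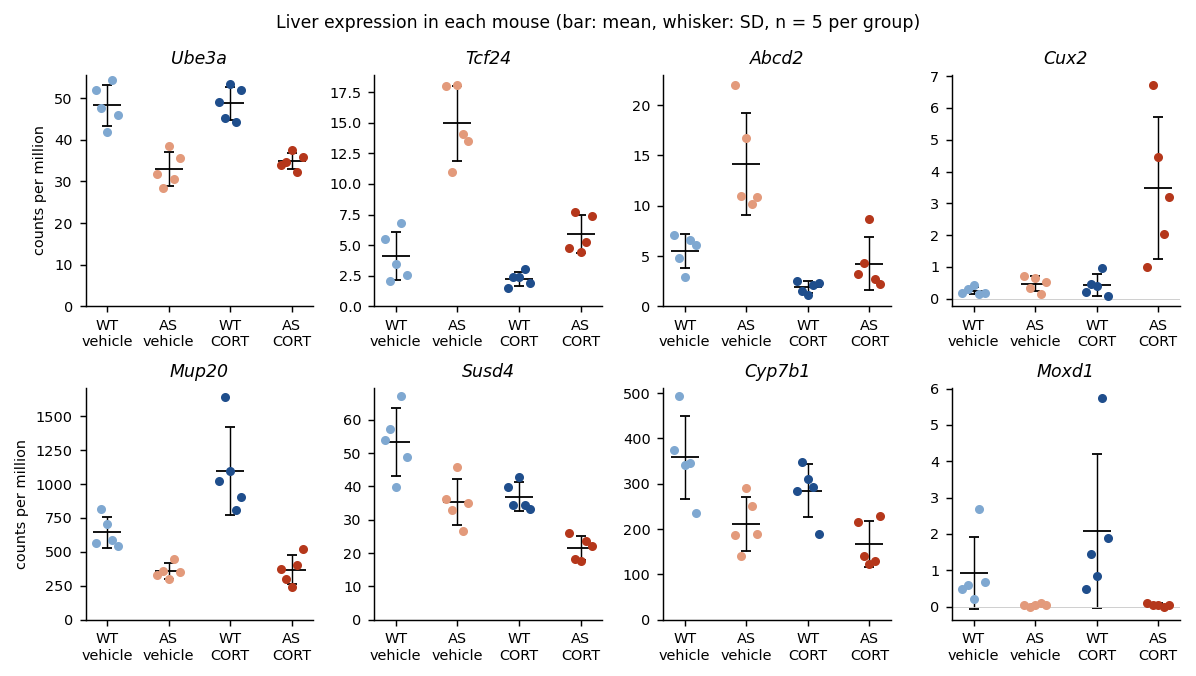
Liver expression in CPM (y axis) in each mouse, for 8 genes and the 4 groups (5 points each), with the group mean as a bar and the SD as a whisker. Ube3a, Mup20 and Tcf24 did not overlap between genotypes in either treatment, and Cux2 with CORT stood at 0.102 to 0.972 CPM in WT and 0.995 to 6.72 CPM in AS mice.

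All 25 genes of the male-biased list were tested, and 7 fell in AS liver at the adjusted threshold (0.122% of all genes did), while 0 rose and 18 did not pass. Since the list was chosen with earlier results known, its counts are no independent evidence of a direction. The value lay below 0 for 24 of 25 members, beside 47.6% of all genes, and the median log2 fold change was -0.67, beside 0.01 over all genes. Those that fell were Mup20, Mup1, Mup12, Moxd1, Susd4, Ugt2b38 and Cyp7b1. Moxd1 passed the filter on low counts through the WT CORT mice alone, the group where it was highest, so that its test adds nothing to the count of the other 6. The remaining members ranged from Mup7 with -1.39 (adjusted p = 0.0602) to Ces2e with 0.24, the member above 0. With the share of unaligned reads as a covariate, 0 of the 25 passed, 19 lay below 0 and the median was -0.28. Without the 6 libraries that stood apart, 4 passed and 24 lay below 0, with a median of -0.67. The part of the unaligned share in the difference was not tested beyond this fit.

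Upstream sequence is shown for Moxd1, the male-biased gene with the largest fitted difference, and for Mup14, a MUP gene that fell. It covers the 250 bases before the RefSeq start on GRCm38.p6, at chr10:24223267-24223516 (plus strand) for Moxd1 and at chr4:61303999-61304248 (minus strand) for Mup14. Capitals mark TTCNNNGAA, the palindromic motif that STAT5 proteins are known to recognise, which reads the same on both strands.
Moxd1: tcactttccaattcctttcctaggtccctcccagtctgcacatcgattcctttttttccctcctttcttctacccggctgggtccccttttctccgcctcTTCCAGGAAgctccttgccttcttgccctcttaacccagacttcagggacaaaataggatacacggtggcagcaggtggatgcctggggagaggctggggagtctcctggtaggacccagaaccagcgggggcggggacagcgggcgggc
Mup14: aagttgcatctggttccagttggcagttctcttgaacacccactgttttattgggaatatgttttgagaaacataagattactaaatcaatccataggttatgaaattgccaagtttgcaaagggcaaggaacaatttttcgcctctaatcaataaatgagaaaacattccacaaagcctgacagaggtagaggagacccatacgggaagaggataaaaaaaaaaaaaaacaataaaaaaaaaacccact
The motif was found at 150 bases before the start of Moxd1 and not in this window of Mup14. Of the 31 genes that differed, 19 had an upstream sequence, and 2 of these, Moxd1 and Ctsc, held the motif. That share of 10.5% stood beside 8.13% of all 27025 genes with an upstream sequence. Among male-biased genes 1 of 15 held it, and among female-biased genes 2 of 11, Hamp2 and Prlr.

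Mup20, which codes for darcin, a pheromone of male urine, was the MUP gene with the smallest p. WT vehicle mice stood at 566, 816, 709, 585 and 546 CPM and AS vehicle mice at 329, 358, 299, 450 and 354 CPM. With CORT the WT mice stood at 1020, 1640, 1100, 810 and 903 CPM and the AS mice at 374, 301, 239, 401 and 525 CPM. All 10 AS mice lay below all 10 WT mice, by a log2 fold change of -1.21 (SE 0.161, adjusted p = 0.000759). Mup14 fell by 1.64 on the log2 scale (adjusted p = 0.00437), Mup1 by 0.90 (adjusted p = 0.00479) and Mup12 by 0.93 (adjusted p = 0.0164). For each of these 3 the genotypes did not overlap among vehicle mice, nor among CORT mice. Of 17 Mup genes tested, 16 lay below 0, beside 47.6% of all genes, with a range of -1.64 to 0.06 on the log2 scale. MUP genes are near-identical copies, and reads that aligned to more than 1 place, 6.71 to 8.44% of each library, were set aside and counted to no gene, so that the values of single copies are uncertain. In the fit with the unaligned share as a covariate the log2 fold change was -0.81 for Mup20, -0.93 for Mup14, -0.54 for Mup1 and -0.41 for Mup12, with adjusted p of 0.13, 0.21, 0.212 and 0.377.

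Moxd1, of the copper monooxygenase family, was nearly undetected in AS liver. WT vehicle mice stood at 0.481, 0.603, 0.197, 2.68 and 0.675 CPM and WT mice with CORT at 0.495, 1.44, 0.829, 5.73 and 1.89 CPM. AS mice stood at 0 to 0.0982 CPM with vehicle and at 0 to 0.105 CPM with CORT, under the limit of 3 counts in every library. The 5 AS vehicle libraries together held 5 reads, where the 5 WT vehicle libraries held 91. The same numbers with CORT were 5 and 203 reads. The fitted log2 fold change of -4.70 (SE 0.662, adjusted p = 0.00144) depends on the prior count at this level.

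Susd4, which codes for a membrane protein that restrains complement, stood at 39.7 to 67.1 CPM in WT vehicle and at 26.6 to 45.9 CPM in AS vehicle mice. With CORT the ranges were 33.2 to 42.9 and 17.7 to 25.9 CPM, without overlap, and the pooled log2 fold change was -0.69 (SE 0.102, adjusted p = 0.00281). Cyp7b1, an oxysterol hydroxylase of the alternative route of bile acid synthesis, stood at 236 to 493 CPM in WT vehicle and 140 to 290 CPM in AS vehicle mice. With CORT it stood at 189 to 348 and 124 to 228 CPM, so that genotypes overlapped in both treatments although the gene fell (-0.76, SE 0.154, adjusted p = 0.035). Leaving out 1 mouse at a time kept Cyp7b1 past the threshold in 6 of 20 fits. Ugt2b38, a UDP-glucuronosyltransferase gene of a multi-copy family, fell by 1.31 (adjusted p = 0.00671). Given the unaligned share as a covariate, the values were -0.46 for Susd4, -0.44 for Cyp7b1, -1.23 for Ugt2b38 and -4.16 for Moxd1, none of which passed.

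Of the 25 female-biased genes listed, 15 were tested, and 3 rose at the adjusted threshold (0.13% of all genes did) while 0 fell. Cux2, 1 of the 3, passed the filter on low counts through the AS CORT mice alone, so that its test adds nothing to the count of the other 2. The value lay above 0 for 14 of 15, beside 52.4% of all genes, with a median log2 fold change of 0.55. With vehicle 9 of 15 lay above 0 and 6 below, beside 52% of all genes above 0, and with CORT 15 of 15 lay above 0, beside 50.2%. The filter on low counts kept a member when it was high in at least 1 group, so that these numbers are a description of the members kept. The other 10, among them Cyp2b9, Sult2a1 and Cyp3a41a, which typify female liver, stayed at 3.58 CPM or lower in every library. With the share of unaligned reads as a covariate, 0 of the 15 passed, 12 lay above 0 and the median was 0.50.

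Abcd2, a peroxisomal importer of very long fatty acids, differed in vehicle mice without overlap, at 7.12, 4.78, 2.9, 6.62 and 6.07 CPM in WT and 22, 11, 16.7, 10.2 and 10.9 CPM in AS. With CORT the levels were lower and overlapped, at 1.14 to 2.57 and 2.25 to 8.73 CPM. The pooled log2 fold change was 1.27 (SE 0.236, adjusted p = 0.0175). Cux2, a repressor of male-biased genes in female liver, was low in all mice, at 0.158 to 0.442 CPM in WT vehicle and 0.147 to 0.722 CPM in AS vehicle livers. With CORT it stood at 0.198, 0.462, 0.414, 0.972 and 0.102 CPM in WT and at 0.995, 6.72, 4.46, 2.03 and 3.21 CPM in AS mice, and the pooled value was 2.26 (SE 0.447, adjusted p = 0.0318), past the threshold in 13 of 20 fits without 1 mouse. The same covariate gave values of 0.85 for Abcd2 and 1.34 for Cux2, neither of which passed. Prlr, the prolactin receptor (0.47, adjusted p = 0.143), Rtn4 (0.40, adjusted p = 0.0899) and Hamp2 (0.90, adjusted p = 0.193) did not pass.

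**Figure D2:**
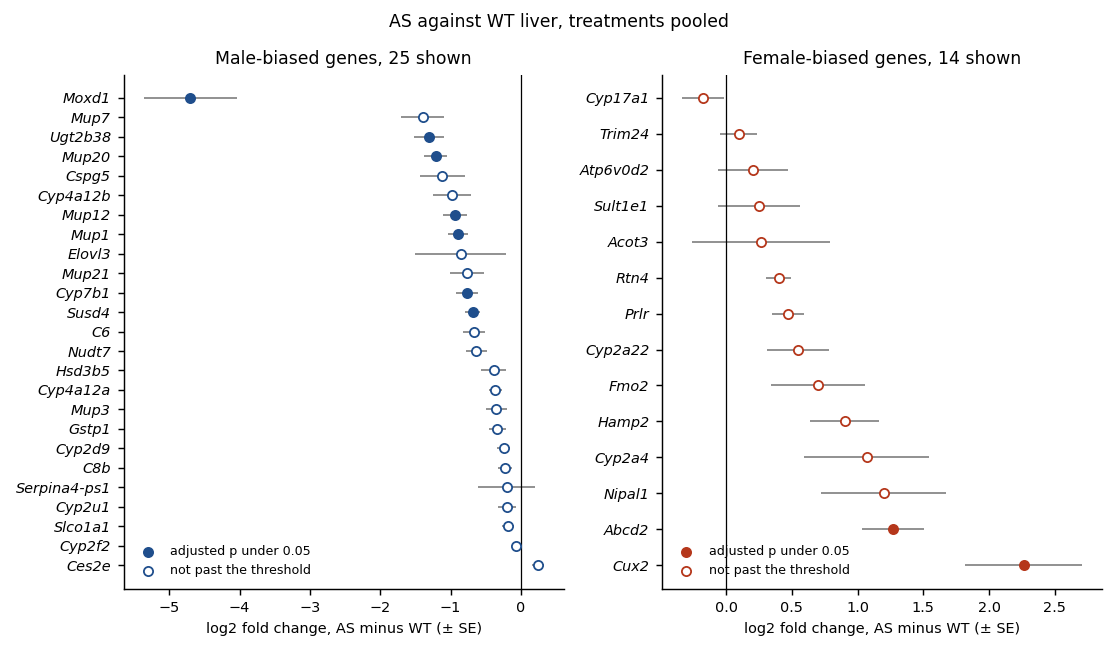
Log2 fold change (AS minus WT, treatments pooled, x axis) with its SE for each male-biased (left, 25 genes) and female-biased gene (right, 14 of the 15 tested), 1 gene per line. Filled points passed an adjusted p of 0.05: 7 on the left, all below 0, and 2 on the right, Abcd2 and Cux2, both above 0.

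**Figure D3:**
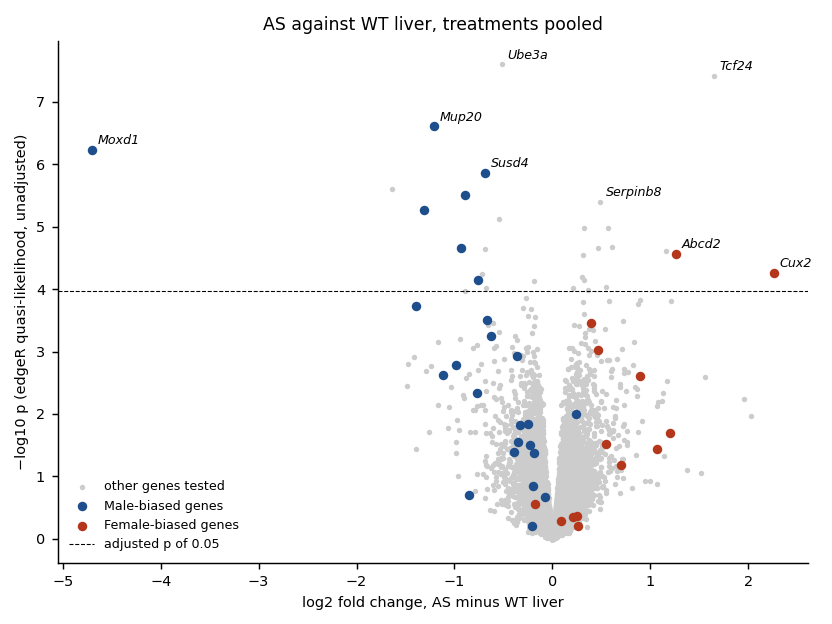
Log2 fold change (x axis) against the negative log10 of the unadjusted p (y axis) for genes tested in liver, with male-biased genes in blue and female-biased genes in red. The dashed line marks the adjusted p of 0.05.

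Of 15 genes of growth hormone signalling tested, 14 did not pass. The other, Cux2, rose, as did 0.13% of all genes. It had passed the filter on low counts through the AS CORT mice alone, the group where it was highest. The growth hormone receptor gene Ghr had a log2 fold change of -0.07, Igf1 of 0.06, Stat5a of 0.07 and Stat5b of 0.31 (adjusted p = 0.41). Targets that respond within a growth hormone pulse varied widely between mice of 1 group. Cish, which codes for a feedback inhibitor induced by STAT5, ranged from 1.47 to 71.6 CPM among AS vehicle mice and from 5.26 to 71.8 CPM among WT vehicle mice. Bcl6, a repressor of STAT5 targets, ranged from 5.82 to 68.8 and from 11.4 to 76.6 CPM in the same groups. The AS vehicle mouse with the lowest Cish (L14) had the highest Bcl6 of its group.

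Most genes that differed, 21 of 31, were on neither list. The gene with the smallest p among them after Ube3a was Tcf24 (chromosome 1, 9960163 to 9967932, minus strand), which codes for a basic helix-loop-helix factor. It stood at 5.53, 2.11, 3.49, 6.78 and 2.6 CPM in WT vehicle and at 18, 11, 18.1, 14.1 and 13.5 CPM in AS vehicle mice. With CORT the values were 1.49, 2.41, 2.38, 3.02 and 1.89 CPM in WT and 4.77, 7.69, 4.46, 5.25 and 7.38 CPM in AS mice. The genotypes did not overlap in either treatment, and the log2 fold change was 1.65 (SE 0.195, adjusted p = 0.000156). With the share of unaligned reads as a covariate it was 1.92 (adjusted p = 0.00177). Ppp1r42, a regulatory subunit gene of a protein phosphatase, lies upstream on the same strand (9968624 to 10009136), ends 691 bases before the start of Tcf24 and had a log2 fold change of 1.16 (adjusted p = 0.0166). It passed the filter on low counts through the AS vehicle mice alone, the group where it was highest, so that its test is no support. Its levels were low, at 0.201 to 0.914 CPM in WT vehicle and 1.07 to 1.92 CPM in AS vehicle mice. Reads of the adjoining genes may be shared where their transcripts run on, which counts per gene cannot show.

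Metabolic genes that rose had smaller differences. Amdhd1 (0.33, adjusted p = 0.00991) and Uroc1 (0.21, adjusted p = 0.0407) code for consecutive enzymes of histidine breakdown. Hal, the enzyme before them, had a log2 fold change of 0.28 (adjusted p = 0.28). Of 33 genes of urea and amino acid metabolism tested, Uroc1 rose past the threshold, beside 0.13% of all genes, and the median was 0.01. Cyp2c38 (0.57, adjusted p = 0.00991) and Cyp2c39 (0.54, adjusted p = 0.0407) are cytochrome P450 genes with near-identical relatives. These 2 rose among 45 xenobiotic genes tested, beside 0.13% of all genes. Of the 45, 20 lay below 0, beside 47.6% of all genes. Tcn2, the cobalamin carrier transcobalamin, rose by 0.31 (adjusted p = 0.0175), Ctsc, the lysosomal protease cathepsin C, by 0.46 (adjusted p = 0.0164), Serpinb8, a protease inhibitor, by 0.49 (adjusted p = 0.00541), Vnn3, a pantetheinase, by 0.30 (adjusted p = 0.0337) and Ddah1, which degrades methylated arginine, by 0.37 (adjusted p = 0.0423). Without 1 mouse at a time Uroc1 passed in 4 of 20 fits, Cyp2c39 in 5 and Vnn3 in 8. For Ddah1 and for Gm8883, named next, these fits were not read out. Gm11844 (0.61, adjusted p = 0.0164) is annotated as antisense and Gm8883 (0.32, adjusted p = 0.035) as a long intergenic RNA, and whether counting used strand is not stated.

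Genes outside the lists that fell included Myh10, a non-muscle myosin heavy chain (-0.55, adjusted p = 0.00833), and Lama3, a laminin chain (-0.68, adjusted p = 0.0164). The carboxylesterase gene Ces2c (-0.71, adjusted p = 0.0324), the calpain gene Capn8 (-0.68, adjusted p = 0.0407) and Arhgap42, a regulator of small GTPases (-0.19, adjusted p = 0.0352), fell as well, Ces2c in 9 of 20 fits without 1 mouse. C4a, the sex-limited protein of the complement C4 locus, fell by 0.89 (adjusted p = 0.0424). It stood at 74.3 to 110 CPM in WT and 37.9 to 51.2 CPM in AS mice with CORT, while the vehicle groups overlapped. Its near-identical neighbour C4b had a value of 0.13 (adjusted p = 0.379). Whether Capn8, Arhgap42 and C4a kept their calls without 1 mouse was not read out.

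The contrasts within treatment addressed whether the genotype difference depended on CORT. With vehicle 2 genes passed, Tcf24 and Ube3a, which is 0.0163% of the genes tested. That count was 44 with DESeq2, 0 in a fit of the vehicle mice alone and 1 to 4 without 1 mouse. With CORT 13 rose (0.106%) and 21 fell (0.171%), and of these 34 genes 13 were among the 31 of the pooled comparison. Of the male-biased list 10 members fell in the CORT contrast, with Moxd1 among them, which had entered the test through the WT CORT mice alone, and 0 fell in the vehicle contrast, with medians of -0.78 and -0.34. Of the female-biased list 3 members rose with CORT, among them Fmo2 and Cux2, of which Cux2 had entered the test through the AS CORT mice alone, and 0 rose with vehicle, with medians of 1.03 and 0.57. The difference between the contrasts was tested as the interaction of genotype and CORT, for which 0 genes passed in edgeR. An unadjusted p under 0.05 was found for 995 genes, the DESeq2 Wald test called 9 and limma-voom called 1. The CORT count rested on single mice: it was 13 without L8, 14 without L5 or without L16, 16 without L12, 22 without L15 and 62 without L10. In 9 genes, or 0.0733%, the genotypes did not overlap among vehicle mice or among CORT mice and had the same direction. These were Ube3a, Tcf24, Ppp1r42, Mup20, Mup14, Mup1, Mup12, Moxd1 and Cyp2c38. Ppp1r42 had entered the test through the AS vehicle mice alone and Moxd1 through the WT CORT mice alone, so that they add nothing to this count. The Mup genes are near-identical copies and not independent of each other.

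Genes of glucocorticoid response did not differ between genotypes at the threshold. The glucocorticoid receptor gene Nr3c1 stood at 70.2 to 92.7 CPM in AS and 74.5 to 85.7 CPM in WT mice, with a log2 fold change of -0.0038 and a 95% interval of 95.3 to 104% of the WT level. Of 23 target genes, 0 passed. Fkbp5, a chaperone that restrains the receptor, had a value of 0.18 (adjusted p = 0.847), Sgk1, a kinase, of -0.08 (adjusted p = 0.931) and Per1, a clock gene, of -0.40. These values moved when single mice were left out. Fkbp5 ran from 0.12 to 0.40 without 1 mouse (highest without L4), Per1 from -1.34 without L2 to -0.11 without L4, and Sgk1 from -0.20 without L10 to 0.02 without L13. Tsc22d3, which codes for the glucocorticoid-induced leucine zipper, had a value of -0.33 (adjusted p = 0.192). In vehicle mice it stood at 84.6, 86, 65.7, 70.8 and 67.5 CPM in WT and at 53.1, 48.2, 40.5, 59.1 and 49.7 CPM in AS, without overlap, and this contrast gave -0.58 (adjusted p = 0.141). With CORT the ranges of 154 to 211 and 143 to 192 CPM overlapped. The target list had a median of -0.29 with vehicle and of 0.17 with CORT.

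The cholesterol list was not limited to synthesis, whose genes are switched on together by SREBP2 when sterols are low. Its genes had lower values in AS mice with CORT. In that contrast 27 of 29 tested lay below 0, beside 49.8% of all genes, with a median of -0.80. Among them 1 fell past the threshold, beside 0.171% of all genes, Tm7sf2, a sterol reductase gene (-0.97, adjusted p = 0.00352). Tm7sf2 stood at 215 to 286 CPM in WT and at 96.8 to 175 CPM in AS mice with CORT. With vehicle 10 of 29 lay below 0, where 52% of all genes lay above 0, and the median was 0.15. In the pooled comparison 0 passed, with 24 of 29 below 0, beside 47.6% of all genes. Sqle, squalene epoxidase, stood at 158 to 266 CPM in WT and at 28.3, 67.4, 155, 39 and 48 CPM in AS mice with CORT. L10, at 155 CPM, lay close to the WT range and the other 4 AS mice lay well below it.

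Several other lists held no gene past the threshold in the pooled comparison. Genes of the unfolded protein response lay below 0 in 23 of 26. Heat shock genes did so in 18 of 20, beside 47.6% of all genes. Their medians were -0.18 and -0.15, with 0 past the threshold. Genes of oxidative phosphorylation lay above 0 in 41 of 42, beside 52.4% of all genes, with a median of 0.06, and 0 passed. No gene passed among 33 acute phase genes, where Lcn2, lipocalin, had the largest value (1.21, adjusted p = 0.0546). In the CORT contrast 30 of these 33 lay above 0, beside 50.2% of all genes, with a median of 0.24. Among them 1 rose, beside 0.106% of all genes, Orm3, an orosomucoid gene with near-identical relatives (1.60, adjusted p = 0.00842). None passed among 23 clock genes, 25 genes of lipogenesis or 28 genes of fatty acid oxidation. Cyp7b1, which fell, was the gene of the bile acid list that passed, out of 24 tested, beside 0.122% of all genes. Of 17 periportal hepatocyte genes 2 rose, Ctsc and Uroc1, beside 0.13% of all genes, and of 16 pericentral genes 0 passed.

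Markers of other cells were compared, since fewer cells of a type and less RNA per cell cannot be told apart in bulk tissue. Of 10 Kupffer cell markers 0 passed. With vehicle all 10 lay above 0 (median 0.41), beside 52% of all genes, and with CORT 5 did, beside 50.2%. Their sum was 199 to 258 CPM in WT vehicle and 263 to 368 CPM in AS vehicle mice, without overlap. With CORT the sums were 108 to 156 and 106 to 157 CPM. Summed erythroid genes stood at 343 to 575 and 244 to 476 CPM with vehicle, and at 229 to 329 in WT and 125 to 192 CPM in AS mice with CORT. All 5 erythroid genes tested lay below 0 in the pooled comparison, beside 47.6% of all genes, with 0 past the threshold. In the CORT contrast 1 fell, beside 0.171% of all genes, Alas2, the first enzyme of haem synthesis in red cells. Summed hepatocyte markers were 108000 to 127000 CPM in WT and 126000 to 154000 CPM in AS mice with CORT. Of 8 neutrophil markers 0 were high enough to be tested, and their sum was 0.42 to 1.21 CPM in WT vehicle and 0.291 to 1.13 CPM in AS vehicle mice. With CORT it was 0.102 to 0.563 CPM in WT and 1.17 to 1.6 CPM in AS mice, without overlap. Summed B cell markers stood at 5.63 to 41.9 and 18.4 to 47.3 CPM with vehicle, and at 6.37 to 16.2 in WT and 3.07 to 10.8 CPM in AS mice with CORT. The part of these shifts in the differences above, those of Lcn2 and Orm3 included, was not tested.

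Principal components of the 500 most variable genes were compared between genotypes with treatment kept fixed, by a two-sided exact permutation test over all 63504 regroupings. PC1 held 55.1% of the variance and followed CORT, at -17.7 to -9.36 in vehicle and 11.3 to 17.7 in CORT mice. Genotype separated on PC4, which held 4.1% of the variance. The mean PC4 score was 1.78 in WT vehicle, -2.19 in AS vehicle, 4.94 in WT CORT and -4.54 in AS CORT mice, a difference of -6.73 (permutation p = 3.15e-05, the smallest that this design allows, adjusted p = 0.000157 over 5 components). All 10 AS mice lay below all 10 WT mice. The genes with the largest weights on PC4 included Mup14, Mup7, Mup20, Sqle and Obp2a, named after their weights were seen. PC1, PC2, PC3 and PC5 did not pass, with adjusted permutation p of 0.568, 0.651, 0.493 and 0.596. The component matching PC3 passed in 4 of 20 fits without 1 mouse (L10, L11, L18 or L20). Without L18 it was the component also matched to PC4. Without L8 the component matching PC4 differed by -3.61 (permutation p = 0.0779, adjusted p = 0.195) and did not pass. Without L11 it differed by -3.96 (permutation p = 0.0155, adjusted p = 0.0388). The transformation also changed which component separated genotype: on log2 CPM the component matching PC3 differed by 8.97 (permutation p = 0.000504, adjusted p = 0.00252), and that matching PC4 by -5.29 (permutation p = 0.0275, adjusted p = 0.0688).

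**Figure D4:**
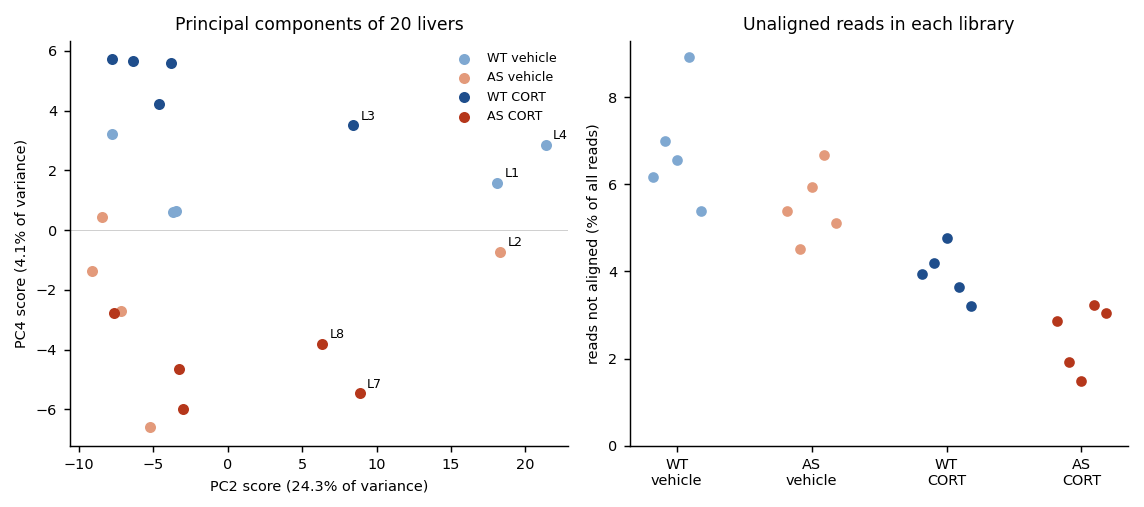
Left, scores of the 20 livers on PC2 (x axis) and PC4 (y axis), with the 6 libraries that stood apart on PC2 named; PC4 scores of all AS mice (red shades) were below those of all WT mice (blue shades). Right, the percentage of reads that did not align in each library, by group, from 5.39 to 8.93% in WT vehicle down to 1.49 to 3.23% in AS CORT livers.

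Hippocampus of the same cohort was used to see which liver differences also appeared where the paternal copy of Ube3a is silenced in neurons. In 18 hippocampal libraries, without H9 and H13, 84 of 14949 genes differed between genotypes (0.562%). That count was 2 with all 20 libraries, 335 with DESeq2 and 34 to 342 without 1 library, with 12 of the 18 moving it by over 1.5 times. Of the 31 liver genes 14 were tested there, and 0 passed in the fit that gave 84. Ube3a stood at 69.2 to 98.0 CPM in vehicle and 70.6 to 97.5 CPM in CORT mice, and AS mice held 104% of the WT level (95% interval 93.8 to 115%, adjusted p = 0.773). The deletion removes 1 exon, so that counts over the whole gene do not measure intact transcript or protein. In a joint fit of 11017 genes the genotype effect differed between liver and hippocampus for 19 genes (0.172%). This fit took the libraries as independent.

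The difference of the effects, liver minus hippocampus, was -0.58 for Ube3a (SE 0.0941, adjusted p = 0.00154). It was also past the threshold for Moxd1 (-4.70), Serpinb8 (0.90), Abcd2 (1.43) and Cux2 (2.38), which with Ube3a had the smallest p, and for Susd4 (-0.69), Myh10 (-0.53) and Ctsc (0.65). Both tissues were taken from the same mice, and each number carried the same genotype and treatment in both. With the number as a block Ube3a (-0.53, adjusted p = 0.0755), Cux2 (2.27, adjusted p = 0.0755) and Myh10 (-0.51, adjusted p = 0.145) no longer passed, while Moxd1, Serpinb8, Abcd2, Susd4 and Ctsc did. Moxd1 and Cux2 had passed the liver filter through 1 group alone, so that their tissue differences are given as values and not as support. Abcd2 was well detected in hippocampus, at 24.3 to 37.0 CPM, with a log2 fold change of -0.16 (adjusted p = 0.244). Moxd1 stood at 7.97 to 11.7 CPM there, with a value of -0.06. Serpinb8 had a value of -0.42 in hippocampus (adjusted p = 0.0564), opposite in sign to that in liver. The MUP genes and Tcf24 were too low in hippocampus to be tested, so that their tissue difference was not tested.

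**Figure D5:**
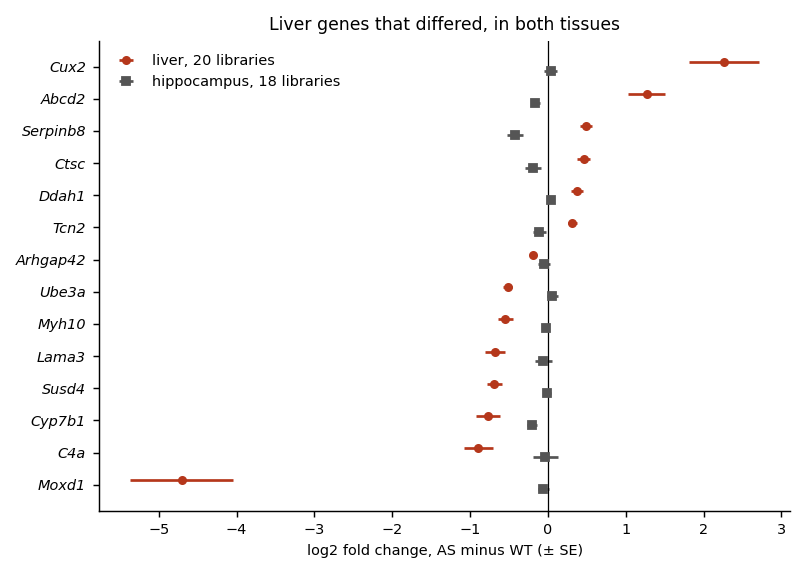
Log2 fold change (AS minus WT, treatments pooled, x axis) with its SE in liver (red circles, 20 libraries) and hippocampus (grey squares, 18 libraries) for the 14 genes that differed in liver and were tested in both tissues. Ube3a lies at -0.52 in liver and 0.06 in hippocampus, and 0 of the 14 passed the threshold in hippocampus.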

How the data were processed

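Frozen liver and hippocampus had been sequenced as stranded mRNA libraries (100 bp paired-end, DNBseq). Reads were aligned to mm10 (STAR) and the authors deposited raw counts per gene (HTSeq) without normalization; annotation release and strand setting are not given in the sources used here. Reads on no gene (15.4 to 23.3% per liver library) were left out of library sizes. The deposited acute hippocampus table was not used, and 0 columns belonged to no sample.

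A gene was tested if its count, scaled by median-of-ratios size factors, exceeded 20 in 3 or more mice of 1 group. Tests were run in R 4.3.3 with edgeR 4.0.16 (TMM, quasi-likelihood F test, treatment and genotype as terms). P-values were adjusted over all genes tested, with a threshold of 0.05. CPM are TMM-normalized. Contrasts within treatment and the interaction came from 1 fit of the 4 groups. Alternatives used DESeq2 1.42.0, limma 3.58.1 and sva 3.50.0. Symbols came from GENCODE M21, matched for 55480 of 55573 IDs. PCA used the variance stabilizing transformation. The fits were tested on simulated data.

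Named genes were Ube3a, tested genes of its region, the 12 genes on each side with the smallest p among those called with 1 direction in both treatments, up to 4 called members of each list, Nr3c1, Fkbp5, Tsc22d3, Sgk1 and Per1, and the 5 smallest p under the threshold for the tissue difference (0 passed for the interaction). Other names, and the remaining genes of the 31, were added after values were seen. Members and lists were chosen with earlier results of these data known. P-values set a difference against the spread between the libraries in each fit, and count limits cover counting error only. 1 gene that counts towards the totals is not reported here by name.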

Additional observations from a re-analysis of the deposited data

Results flagged for a closer look

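Within groups of 5 mice, 10 of 141 groups of named genes held a library whose gap to its nearest neighbour exceeded 0.71 of the range of the group; about 1 in 20 groups is expected to do so by chance. The highest values of this kind were Cyp2c38 at 29.4 CPM in WT vehicle mouse L13, Moxd1 at 2.68 CPM in the same mouse and at 5.73 CPM in WT CORT mouse L15, Herc2 at 65.2 CPM in L15, Lama3 at 6.94 CPM in WT CORT mouse L12, Sgk1 at 21 CPM in WT CORT mouse L5 and Per1 at 51.8 CPM in AS vehicle mouse L2. The lowest values were Fkbp5 at 183 CPM in AS CORT mouse L10, and Nr3c1 at 70.2 CPM and Serpinb8 at 3.64 CPM in AS CORT mouse L18. L2 is 1 of the 6 libraries that stood apart on the component led by clock genes.

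The AS effect differed between liver and hippocampus by the test of the difference itself for 8 named genes. The log2 differences were -0.579 for Ube3a, -4.7 for Moxd1, -0.687 for Susd4, -0.53 for Myh10, 0.903 for Serpinb8, 0.647 for Ctsc, 1.43 for Abcd2 and 2.38 for Cux2. With the replicate number as a block, Ube3a (adjusted p = 0.0755), Cux2 (adjusted p = 0.0755) and Myh10 (adjusted p = 0.145) no longer passed. Moxd1 and Cux2 had passed the filter on low counts in liver through 1 group alone, the group where each was highest, so that their tests are no support.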

How the results depend on the processing

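Of the values recomputed under each alternative, 1258 kept their direction and side of the threshold or stayed within 1.5 times a count, 190 became weaker, 30 stronger and 22 turned sign; where no cause is named, the cause was not tested. In the pooled liver comparison Ube3a kept its call in all 12 alternatives and without each mouse. The 31 genes of the pooled comparison became 83 with the DESeq2 Wald test, 3 with no treatment covariate, 52 with limma-voom and sample quality weights, 88 with 1 surrogate variable, 13 at an adjusted p under 0.01 and 21 to 38 without 1 mouse. With the share of unaligned reads as a covariate they became 2, and without the 6 libraries low in Elovl3 56; both were chosen after seeing the data. Male-biased genes that fell, 7, became 11 with DESeq2, 11 with the average of both contrasts, 2 without the covariate, 11 with the surrogate variable, 0 with the unaligned share, 4 without the 6 libraries and 6 to 8 without 1 mouse. Female-biased genes that rose, 3, became 5 with DESeq2, 0 without the covariate, 5 with the surrogate variable, 0 with the unaligned share, 1 at 0.01 and 2 to 4 without 1 mouse. The vehicle count of 2 became 44 with DESeq2, 0 in a fit of only those groups, 1 at 0.01 and 1 to 4 without 1 mouse (1 without L1, L4, L9 or L14, and 4 without L2 or L13). The CORT count of 34 became 93 with DESeq2, 78 with limma-voom, 85 with the surrogate variable, 10 at 0.01 and 13 to 62 without 1 mouse. The interaction count of 0 became 9 with DESeq2, 2 with no filter, 1 with limma-voom, 2 with the surrogate variable and 0 to 1 without 1 mouse. The hippocampus count of 84 became 335 with DESeq2, 2 with all 20 libraries, 18 at 0.01 and 34 (without H11) to 342 (without H14) without 1 mouse; H2, H3, H4, H5, H7, H8, H12, H18, H19 and H20 also moved it over 1.5 times. The PC1 difference became -0.478 with all genes (0.333 to 1.72 without 1 mouse), PC2 ran from -4.83 to 0.398 without 1 mouse, PC3 became 8.97 on log2 CPM (-3.61 without L8 to 7.02 without L18, where the matching component was the one also matched to PC4), PC4 -5.29 (-7.08 to -3.61, on log2 CPM and without L8 no longer past the threshold, with adjusted p of 0.0688 and 0.195) and PC5 1.7 (-1.92 to 0.0724). Among genes near 0, Nipa2 became 0.0256 without the 6 libraries (-0.0563 to 0.000947 without 1 mouse), Tubgcp5 -0.103 with the unaligned share (-0.0283 to 0.0696), Nr3c1 0.0131 with GC and length offsets and 0.00254 with the unaligned share (-0.0179 to 0.00763), and Sgk1 ran from -0.198 to 0.0175. Depth limits Moxd1 in AS mice and Cux2 with vehicle, which lay near a count of 3.

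With the replicate number as a replicate block, the liver minus hippocampus difference passed for 11 genes in place of 19; with all 20 hippocampus libraries it passed for 10, and without 1 number for 15 to 23. Ube3a and Cux2 (adjusted p = 0.0755 each) and Myh10 (0.145) lost the call in the block. Deviations of the same number correlated at -0.0814 to 0.0762 over 18 pairs, 0 above 0.1, and 2 liver libraries correlated best with their own number. Different tissues of the same mouse need not deviate together, so that these correlations cannot show that pairing is absent. Both tissues came from the same mice, and all 20 numbers carry the same genotype and treatment in both. The main fit took the libraries as independent. Whether the number names the mouse is not stated.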
